A study of Homo sapiens with 6 samples.

Results

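The 10 genes described here encode C-type lectin-like proteins of myeloid cells: CLEC2B, CLEC2D, CLEC4A, CLEC4D, CLEC4E, CLEC5A, CLEC7A, CLEC10A, CLEC11A and CLEC12A. They were chosen by name from a deposited count table of 61517 genes, and each matched 1 row. The cells were THP-1, a human monocytic leukaemia line, which the submitters turned into macrophages and then exposed to lipopolysaccharide (LPS) and ATP to set off pyroptosis, a lytic inflammatory cell death. In 3 libraries the cells had also received ruxolitinib, an inhibitor of the kinases JAK1 and JAK2 (written Lukotinib in the treatment field and RUX+ in the titles), and in 3 control libraries the treatment field reads none. LPS and ATP were common to both groups, so no unstimulated cells stand beside them. Dose, timing and differentiating agent were not given in the labels. A single cell line was used, and separate cultures within a group are not stated. The p-values therefore reflect the variation among these libraries alone, and it may be technical.

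C-type lectin receptors read sugars, lipids and damaged-cell products through a shared carbohydrate-recognition fold. CLEC7A, known as dectin-1, binds fungal beta-glucan and carries its own tyrosine motif, which recruits the kinase SYK and, through the adaptor CARD9, activates NF-kB. CLEC4E (Mincle) and CLEC5A (MDL-1) lack such a motif and signal through the partner chains FCER1G and TYROBP. CLEC4A (DCIR) and CLEC12A (MICL) carry inhibitory motifs that recruit phosphatases. CLEC2B (AICL) and CLEC2D (LLT1) are ligands for the natural killer cell receptors KLRF1 and KLRB1. CLEC10A binds galactose-type sugars, and CLEC11A is a secreted growth factor rather than a membrane receptor.

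With ruxolitinib, the activating receptor genes CLEC7A and CLEC5A were lower and no member was called higher. CLEC7A was at 2.25 ± 0.196 CPM with ruxolitinib and 9.68 ± 1.05 CPM in control, and CLEC5A at 13.6 ± 0.364 CPM with ruxolitinib and 29.1 ± 1.86 CPM in control (SD, n = 3 each). CPM here are read counts scaled to TMM-adjusted library totals. CLEC2D, CLEC4E, CLEC4A and CLEC11A were tested and did not pass. CLEC2B, CLEC4D, CLEC10A and CLEC12A were too low to test. Tests were edgeR's quasi-likelihood test with Benjamini-Hochberg adjustment over all 14051 genes that passed the filter on low counts, with a threshold of 0.05. In that test 29.7% of genes passed, 16.1% lower and 13.6% higher, and this is the background against which the 2 lower members among the 6 tested stand. The balance depended on the scaling: 54.2% of calls were higher with upper-quartile factors and 37.6% with library totals alone, against 45.7% as reported.

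The libraries held 17757595 to 24533979 counts. Genes with at least 1 count numbered 21126 to 21412 with ruxolitinib and 21986 to 24798 in control, the highest being control replicate 2. All 10 macrophage markers listed were detected and tested, and 8 were lower, 1 higher and 1 did not pass, against 16.1% of all genes lower and 13.6% higher. Without ruxolitinib replicate 2, 5 were lower. CD68 (a lysosomal glycoprotein), CSF1R (the M-CSF receptor), CD14 (the LPS co-receptor) and CD163 (a haemoglobin scavenger) were among the lower. The higher one was LYZ, the lysozyme gene, with a log2 fold change of 0.20 ± 0.07 (edgeR adjusted p = 0.0362), a call lost in 12 of 17 alternatives, the batch block among them (0.101). The summed level of the 10 macrophage markers was 656 to 772 CPM with ruxolitinib and 1284 to 1412 CPM in control. In bulk RNA, fewer cells of a type and less RNA per cell cannot be told apart. Of 17 markers of other cell types, 6 were high enough to test. The summed level of all 17 was 194 to 229 CPM with ruxolitinib and 232 to 241 CPM in control. NCAM1, an adhesion molecule, made up most of that sum, while the T-cell markers CD3D and CD3E, the dendritic marker FCER1A and the granulocyte marker CEACAM8 had 0 counts. Of these markers, NKG7, a cytotoxic granule gene, was lower, at 1.49 ± 0.392 CPM with ruxolitinib and 5.67 ± 0.660 CPM in control (SD, n = 3 each, edgeR adjusted p = 2.04e-05). CD1C, a lipid-presenting molecule of dendritic cells, was lower with an adjusted p = 0.0360, lost in 11 of 17 alternatives and with the batch as a block (0.0814). The part of these markers' shifts in the members' results was not tested.

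**Figure D1:**
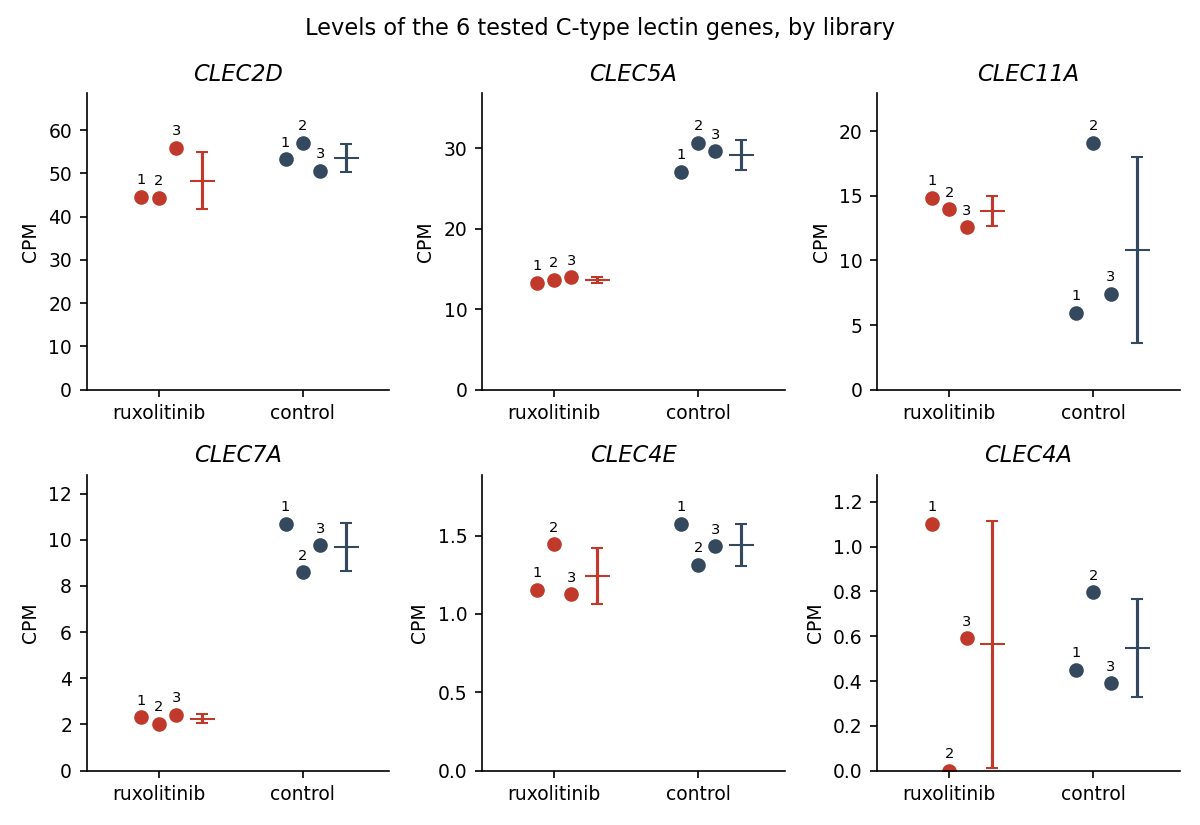
Level of each tested member in CPM (TMM-scaled) in the 3 ruxolitinib libraries and the 3 control libraries, with the mean and SD beside the points and the replicate number above each point. For CLEC7A and CLEC5A every ruxolitinib library lies below every control library, and for CLEC11A control replicate 2 stands at 19.1 CPM above all other libraries.

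CLEC7A (ENSG00000172243) lies on chromosome 12 at 10116777 to 10130258 of GRCh38, on the minus strand. Its counts were 44, 38 and 45 in ruxolitinib replicates 1 to 3, against 190, 216 and 225 in control replicates 1 to 3. In CPM these were 2.31, 2.03 and 2.41 with ruxolitinib and 10.7, 8.59 and 9.76 in control. The groups were far apart and each was narrow. The log2 fold change was -2.10 ± 0.15 (SE, n = 3 per group, edgeR adjusted p = 6.5e-07), which is 4.28-fold lower with ruxolitinib. Of all genes tested, 98, or 0.697%, passed with a log2 fold change at or under that of CLEC7A.

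CLEC5A (ENSG00000258227) lies on chromosome 7 at 141927357 to 141947007, minus strand, apart from the other members. It had 253, 255 and 261 counts in the ruxolitinib libraries, against 481, 771 and 683 in the control libraries. The CPM values were 13.3, 13.7 and 14.0 with ruxolitinib and 27.1, 30.7 and 29.6 in control. These groups did not overlap either, as held for 44.3% of all genes tested. The log2 fold change was -1.10 ± 0.08 (SE, n = 3 per group, edgeR adjusted p = 6.5e-07), a 2.14-fold lower level with ruxolitinib, and 2.97% of all genes passed with a log2 fold change of -1 or below. CLEC5A shares exon positions with MGAM on the opposite strand, and the labels do not say whether strand was used in counting. MGAM itself had 111 counts over the 3 ruxolitinib libraries and 107 over the 3 control libraries, well under the counts assigned to CLEC5A.

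The 250 bases before the RefSeq start of CLEC5A are shown because CLEC5A is a lower member, beside those of CLEC4E, a tested myeloid receptor that did not pass. No such sequence was available for CLEC7A, the other lower member, so the motif search does not cover it. Both are RefSeq sequence of GRCh38.p14, printed 5′ to 3′ on the gene's minus strand, and the RefSeq starts lie inside the GENCODE gene ends. CLEC5A spans chr7:141946975-141947224 and CLEC4E chr12:8540906-8541155. Capitals mark the PU.1 core GAGGAA on either strand in both sequences, and in CLEC4E also the C/EBP motif TTGCNNAA.
CLEC5A: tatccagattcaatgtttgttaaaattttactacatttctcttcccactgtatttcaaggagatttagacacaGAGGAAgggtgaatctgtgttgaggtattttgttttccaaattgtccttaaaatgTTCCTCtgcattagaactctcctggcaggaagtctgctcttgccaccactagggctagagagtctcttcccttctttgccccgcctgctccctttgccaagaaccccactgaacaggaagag
CLEC4E: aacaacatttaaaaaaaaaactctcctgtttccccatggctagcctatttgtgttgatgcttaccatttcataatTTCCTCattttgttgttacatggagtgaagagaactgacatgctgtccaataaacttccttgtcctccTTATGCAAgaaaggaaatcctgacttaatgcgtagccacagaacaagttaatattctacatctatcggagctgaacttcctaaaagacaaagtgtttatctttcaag

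PU.1 and C/EBP proteins are transcription factors of the myeloid lineage. The PU.1 core had 2 matches in the CLEC5A window and 1 in each of the CLEC4E, CLEC2D and CLEC12A windows, and 23.6% of all 35116 windows of this length hold it. The C/EBP motif was matched once in the CLEC4E window, against 9.05% of all windows. The AP-1 motif TGANTCA was matched once in the CLEC2D window, against 6.57% of all windows. STAT proteins bind the GAS motif TTCNNNGAA, and interferon-activated complexes the ISRE core, searched as 2 copies of GAAA with 2 bases between them. Neither of these sets of letters was in the windows of CLEC2D, CLEC4E, CLEC5A, CLEC11A or CLEC12A, the 5 members in the table, and they were in 6.57% (GAS) and 3.02% (ISRE core) of all windows. A match in the letters is a description and not a bound site. All motifs were searched on both strands, and the marked matches in each window do not overlap.

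CLEC4E (ENSG00000166523), which senses mycobacterial glycolipid and the nuclear protein SF3B3 released from dying cells, lies on chromosome 12 at 8533305 to 8540963. It had 22, 27 and 21 counts in the ruxolitinib libraries, against 28, 33 and 33 in the control libraries. The level was 1.24 ± 0.177 CPM with ruxolitinib and 1.44 ± 0.131 CPM in control, and the groups overlapped. The log2 fold change was -0.21 ± 0.24 (SE, n = 3 per group, edgeR adjusted p = 0.571), with a 95% interval from -0.74 to 0.33, so a fall as large as that of CLEC5A lies outside the interval. CLEC4D, its partner, had 0 counts in all 6 libraries, where a count of 0 allows up to 0.119 to 0.169 CPM, taking 3 counts per library as the limit. Such limits cover counting error only.

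The inhibitory receptor genes were at the edge of detection. CLEC4A (chromosome 12, 8123632 to 8138607, plus strand) had 21, 0 and 11 counts in ruxolitinib replicates 1 to 3, against 8, 20 and 9 in control replicates 1 to 3. The ruxolitinib libraries enclosed the control ones on both sides. The transcript AC006511.5 shares exon positions with CLEC4A on the same strand and had 18 counts over all 6 libraries. Part of the reads there may be split between AC006511.5 and CLEC4A. The fitted log2 fold change was 0.03 ± 0.83 (SE, n = 3 per group, edgeR adjusted p = 0.985), with a 95% interval from -1.94 to 2.00. Counts so low and so uneven could not separate a change of several fold in either direction from none. CLEC12A (chromosome 12, 9951316 to 9995694) had 1 count in ruxolitinib replicate 2 and 0 in the other 5 libraries.

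Of the natural killer cell ligands, CLEC2D was well detected and CLEC2B was not. CLEC2D (ENSG00000069493; chromosome 12, 9664969 to 9699555, plus strand) had 44.6, 44.4 and 55.9 CPM with ruxolitinib, against 53.3, 57.1 and 50.6 CPM in control. Ruxolitinib replicates 1 and 2 lay below all control libraries and replicate 3 lay among them. The log2 fold change was -0.15 ± 0.09 (SE, n = 3 per group, edgeR adjusted p = 0.252), with a 95% interval from -0.36 to 0.05. Without ruxolitinib replicate 3 it was -0.27 with an edgeR adjusted p = 0.0130, and with batch 3, a library of each group, left out it was -0.31 with an adjusted p = 0.0148. The pseudogene NPM1P7 shares exon positions with CLEC2D on the same strand and had 358 counts over the ruxolitinib libraries and 506 over the control libraries, while CLEC2D had 2724 over the ruxolitinib libraries and 3549 over the control libraries, so part of the reads there may be split between them. CLEC2B (chromosome 12, 9852984 to 9870136) had 3, 4 and 0 counts in the ruxolitinib libraries, against 8, 4 and 5 in the control libraries. KLRB1, the receptor for CLEC2D, had 0 counts in all 6 libraries, and KLRF1, the receptor for CLEC2B, had 18 counts over the ruxolitinib libraries and 17 over the control libraries.

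CLEC11A (ENSG00000105472), the secreted member, lies on chromosome 19 at 50723329 to 50725718 on the plus strand. It had 283, 261 and 234 counts in ruxolitinib replicates 1 to 3, against 106, 480 and 171 in control replicates 1 to 3. In CPM this was 14.8, 14.0 and 12.5 with ruxolitinib and 5.96, 19.1 and 7.42 in control. Control replicates 1 and 3 lay below all ruxolitinib libraries, and control replicate 2 above them. The log2 fold change over all libraries was 0.32 ± 0.50 (SE, n = 3 per group, edgeR adjusted p = 0.689), with a 95% interval from -1.0 to 1.64. Without control replicate 2 it was 1.03 ± 0.13 with an adjusted p = 1.7e-05, and with batch 2 left out of each group it was 1.02 with an adjusted p = 3.7e-08. Control replicate 2 was at least 2-fold above both other control libraries for 140 of the 14051 genes tested, or 0.996%, against 25 to 76 genes for each of the other libraries within its own group. The part of that library in the CLEC11A result was not tested beyond leaving it out. CLEC10A (chromosome 17, 7074537 to 7080307) had 1 count in control replicate 2 and 0 elsewhere.

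**Figure D2:**
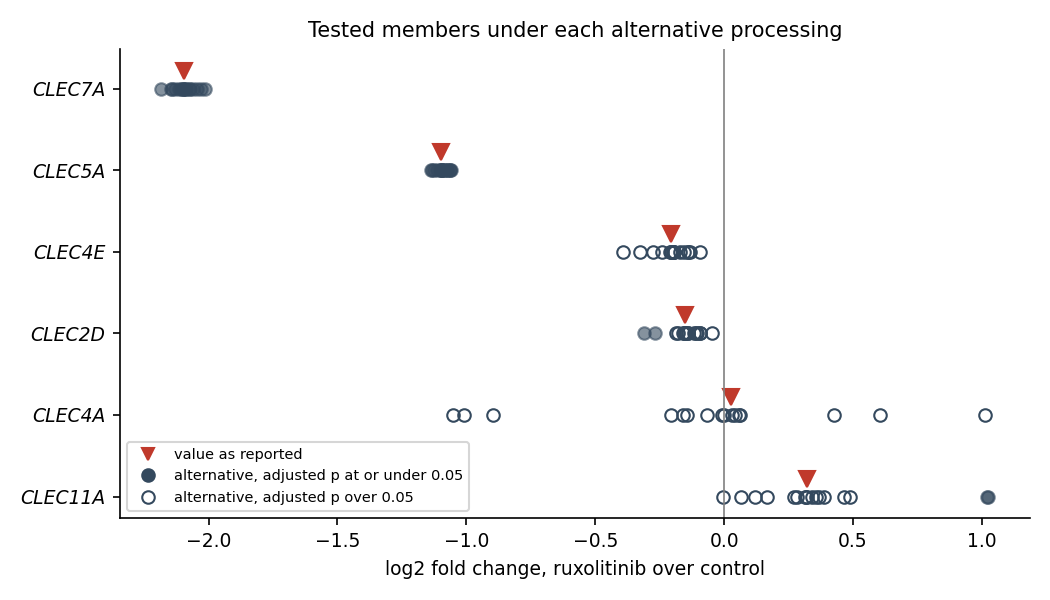
Log2 fold change of ruxolitinib over control for each tested member as reported (triangles) and under each alternative processing, circles being filled where the adjusted p was at or under 0.05. CLEC7A stayed between -2.18 and -2.02 and CLEC5A between -1.14 and -1.06, while CLEC11A spread up to 1.03, its only filled circles being the values without control replicate 2.

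Levels were set beside each other per length of annotated exon. With ruxolitinib the order was CLEC11A at 9.39 ± 0.788, CLEC2D at 6.95 ± 0.946, CLEC5A at 3.30 ± 0.0883, CLEC7A at 0.537 ± 0.0467, CLEC4E at 0.513 ± 0.0730 and CLEC4A at 0.440 ± 0.430 CPM per kilobase (SD, n = 3). In that order CLEC7A, CLEC4E and CLEC4A lay within their spread of each other. In control the order was CLEC2D at 7.71 ± 0.466, CLEC11A at 7.37 ± 4.90, CLEC5A at 7.05 ± 0.451, CLEC7A at 2.31 ± 0.251, CLEC4E at 0.595 ± 0.0542 and CLEC4A at 0.426 ± 0.171 CPM per kilobase (SD, n = 3). There the first 3 lay within their spread, and CLEC7A stood clear of CLEC4E. As a share of the summed per-length level of the 10 members, CLEC7A made up 2.53% ± 0.150 with ruxolitinib and 9.41% ± 2.68 in control, and CLEC5A 15.6% ± 0.714 with ruxolitinib and 28.2% ± 4.33 in control (SD, n = 3 each).

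The fall of CLEC7A was then set against other genes within each library, where scaling between libraries has no part. The log2 ratio of CLEC7A to CLEC5A, per length, was -2.54, -2.77 and -2.56 in the ruxolitinib libraries, against -1.36, -1.86 and -1.62 in the control libraries. The groups did not overlap, and the difference was -1.01 (two-sided exact permutation p = 0.1, and 0.1 after Benjamini-Hochberg adjustment over 5 ratios). Relative to the summed macrophage markers, the log2 ratio of CLEC7A differed by -1.21 and that of CLEC5A by -0.20, each with the same exact permutation p = 0.1 and groups that did not overlap. These ratios were chosen after the members' values were seen, and with 3 libraries against 3 no p under 0.1 is possible.

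Genes that carry the receptors' signal had fold changes nearer to 0 than CLEC7A and CLEC5A, a contrast that was not tested gene by gene. Of 29 listed signalling genes, all tested, 12 were lower, 1 was higher and 16 did not pass, against 16.1% of all genes lower and 13.6% higher. The median log2 fold change of the list was -0.15, and that of all genes tested was -0.01. INPP5D, the lipid phosphatase SHIP1, was at 19.9 ± 0.401 CPM with ruxolitinib and 36.7 ± 1.47 CPM in control (log2 fold change -0.89 ± 0.07, edgeR adjusted p = 1.0e-06), and VAV3, a guanine nucleotide exchange factor, at 237 ± 3.79 CPM with ruxolitinib and 349 ± 10.9 CPM in control (log2 fold change -0.56 ± 0.04, edgeR adjusted p = 1.6e-06). RUBCN, which takes part in LC3-associated phagocytosis, fell by 0.54 ± 0.12 on the log2 scale, the Src-family kinase gene LYN by 0.36 ± 0.05, and PTPN6, the phosphatase SHP-1, by 0.29 ± 0.05. PPP3CA, a catalytic subunit of calcineurin, was the member of the list that rose, with a log2 fold change of 0.33 ± 0.06.

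The kinase gene SYK was at 52.9, 54.7 and 54.4 CPM in the ruxolitinib libraries, against 75.5, 71.0 and 75.8 CPM in the control libraries (log2 fold change -0.46 ± 0.05, SE, n = 3 per group, edgeR adjusted p = 3.9e-05). The log2 ratio of CLEC7A to SYK differed by -1.65 between the groups, and that of CLEC5A to TYROBP by -0.90 (exact two-sided permutation p = 0.1 each). FCER1G, the chain that pairs with CLEC4E, was at 733 ± 5.03 CPM with ruxolitinib and 907 ± 41.6 CPM in control (log2 fold change -0.31 ± 0.05, edgeR adjusted p = 3.2e-04). TYROBP, the chain that pairs with CLEC5A, was at 122 ± 7.18 CPM with ruxolitinib and 140 ± 3.26 CPM in control (log2 fold change -0.19 ± 0.05, edgeR adjusted p = 0.0144). The TYROBP call was lost with the batch number as a block (adjusted p = 0.0579) and without ruxolitinib replicate 1 (0.0823), ruxolitinib replicate 3 (0.0524), control replicate 1 (0.0958), control replicate 3 (0.0616) or either batch 1 (0.245) or batch 3 (0.0945). CARD9 was low and uneven, at 3.36, 2.25 and 3.43 CPM with ruxolitinib and 2.53, 4.38 and 1.74 CPM in control. Its log2 fold change was 0.05 ± 0.33 (edgeR adjusted p = 0.931), and 0.69 with an adjusted p = 0.0213 once batch 2 was left out.

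**Figure D3:**
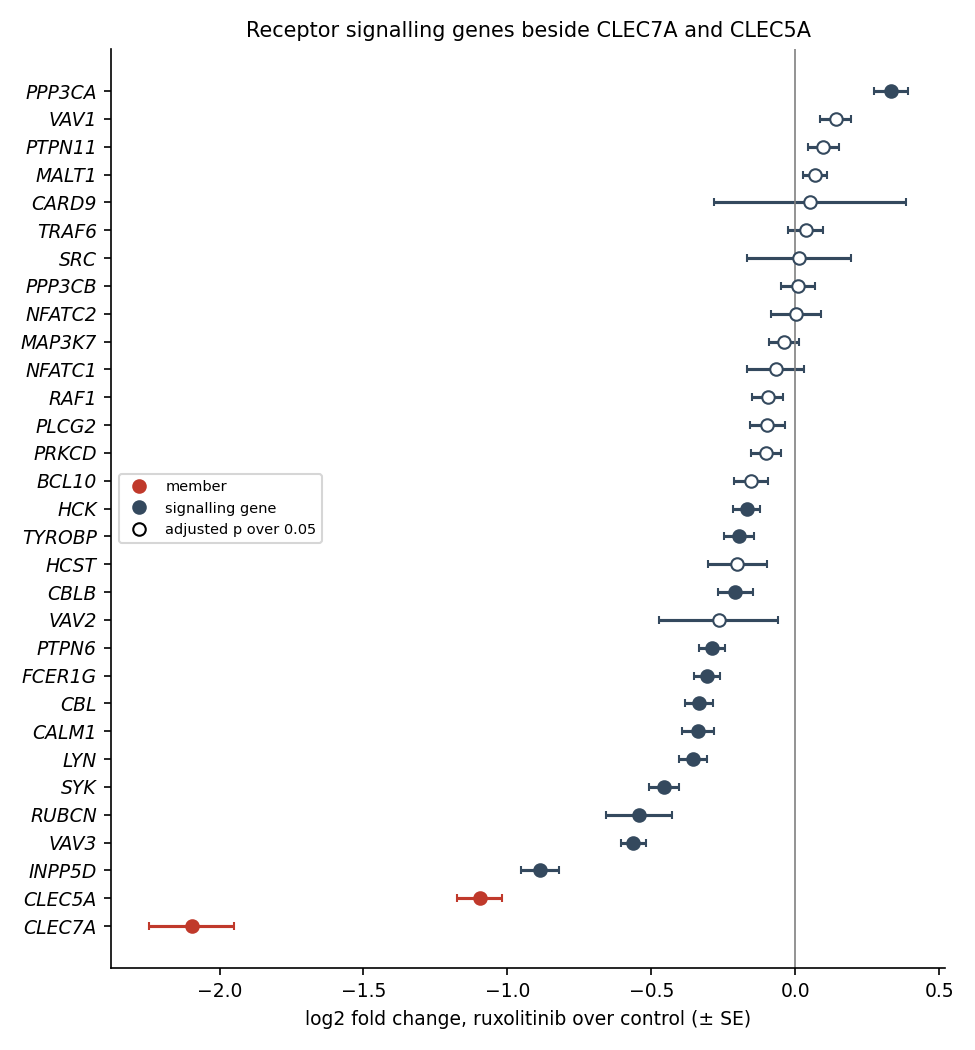
Log2 fold change of ruxolitinib over control with its SE for 29 genes of C-type lectin receptor signalling (dark) and for CLEC5A and CLEC7A (red), open circles not passing the threshold. The signalling genes lie between -0.89 for INPP5D and 0.33 for PPP3CA, and both receptors lie to their left.

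Proteins described as partners or ligands of the members formed a second list. Of 12, 10 were tested, of which 6 were lower and 4 did not pass, with a median log2 fold change of -0.22. Over all genes tested, 16.1% were lower and 13.6% higher. It shares FCER1G, TYROBP and HCST with the signalling list. ANXA1, an annexin described as a dectin-1 ligand, was at 64.9 ± 4.06 CPM with ruxolitinib and 98.8 ± 4.48 CPM in control (log2 fold change -0.61 ± 0.06, edgeR adjusted p = 1.1e-05). CD37, a tetraspanin described beside dectin-1 in the membrane, was at 13.9 ± 2.28 CPM with ruxolitinib and 23.7 ± 1.04 CPM in control (log2 fold change -0.77 ± 0.11, edgeR adjusted p = 2.3e-04). Of the list, only 3 were lower without control replicate 1, without control replicate 3 or with batch 3 left out.

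Among 44 other genes with a C-type lectin-like domain, only 10 were high enough to test, and 25 had fewer than 10 counts over all libraries. Of the 10, 4 were lower, 2 higher and 4 did not pass, with a median log2 fold change of -0.43, against 16.1% of all genes lower and 13.6% higher. CD69, an early activation marker, was at 0.266 ± 0.0503 CPM with ruxolitinib and 1.25 ± 0.244 CPM in control (log2 fold change -2.20 ± 0.36, edgeR adjusted p = 6.2e-04). Its counts were 6, 4 and 5 in the ruxolitinib libraries, against 27, 30 and 24 in the control libraries. CD69 thus passed the filter on low counts only through the control libraries, where it was high, and such a gene is bound towards a lower value. CD209, the pathogen receptor DC-SIGN, was at 5.40 ± 1.35 CPM with ruxolitinib and 11.2 ± 0.456 CPM in control (log2 fold change -1.05 ± 0.16). ASGR2, a subunit of the asialoglycoprotein receptor, had a log2 fold change of -1.30 ± 0.28. Its counts were 13, 11 and 9 in the ruxolitinib libraries, against 24, 39 and 33 in the control libraries. ASGR2 too passed the filter only through the control libraries, so its value has the same limit as that of CD69. The thrombomodulin gene THBD had a log2 fold change of -0.40 ± 0.05 at a level of 1042 ± 48.9 CPM with ruxolitinib and 1374 ± 83.6 CPM in control. OLR1, the oxidised-lipoprotein receptor LOX-1, rose, at 39.7 ± 1.39 CPM with ruxolitinib and 34.0 ± 1.00 CPM in control (log2 fold change 0.23 ± 0.06, edgeR adjusted p = 0.0133), and that call was lost without ruxolitinib replicate 1 (adjusted p = 0.0586) and with batch 1 (0.152) or batch 3 (0.0762) left out. LY75, an endocytic receptor, rose with an edgeR adjusted p = 0.0446, a call lost in 12 of 17 alternatives. The adjusted p ranged from 0.0279 to 0.210 over the alternatives and was 0.109 with the batch as a block. With the block, the list had 1 gene higher and 4 lower. OLR1 and LY75 were named after their values were seen.

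**Figure D4:**
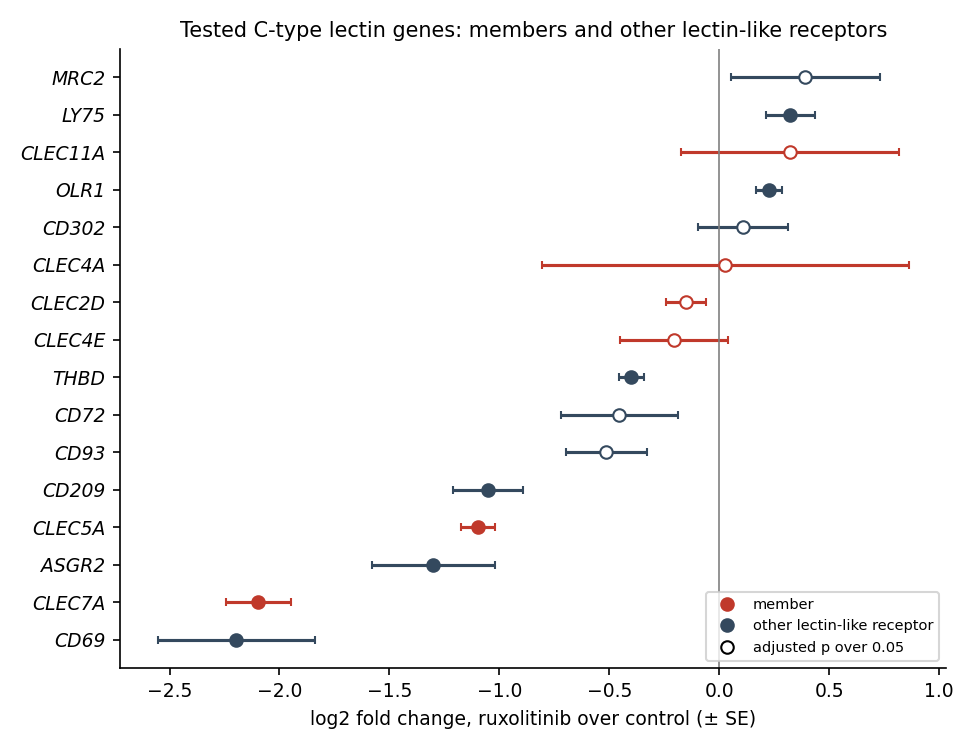
Log2 fold change of ruxolitinib over control with its SE for the 6 tested members (red) and 10 other tested genes with a C-type lectin-like domain (dark), open circles not passing the threshold. CD69, which passed the filter on low counts only through the control libraries, and CLEC7A lie lowest, at -2.20 and -2.10. ASGR2 also passed that filter only through the control libraries. Both OLR1 and LY75 lie above 0.

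Of the 10 members, 7 lie within 2007 kb of chromosome 12, in the region that holds the natural killer gene complex. Within that stretch the annotation places 99 other genes of the table, of which 12 were tested, with 3 lower, 2 higher and 7 not passing. Of all genes tested, 16.1% were lower and 13.6% higher, so these few calls lie near the background. CD69 (9752486 to 9760901) was lower, as given above, but passed the filter on low counts only through the control libraries. It lies between CLEC2D, which did not pass, and CLEC2B, which was too low to test. M6PR, a receptor that sorts lysosomal enzymes, fell by 0.33 ± 0.04 on the log2 scale, and the transcript ENSG00000272917 by 0.62 ± 0.16. A2M, a protease inhibitor, rose by 0.33 ± 0.05 on that scale. LINC00987, a long noncoding RNA named after its value was seen, rose by 1.08 ± 0.34. Its level was 1.22 ± 0.228 CPM with ruxolitinib and 0.576 ± 0.222 CPM in control (SD, n = 3 each). LINC00987 had 25, 18 and 26 counts in the ruxolitinib libraries, against 9, 10 and 19 in the control libraries. It passed the filter on low counts only through the ruxolitinib libraries, where it was high. Such a gene is bound towards a higher value. Under a minimum of 1 CPM it had no value. The LINC00987 call (edgeR adjusted p = 0.0335) did not hold in DESeq2 (adjusted p = 0.111), nor without ruxolitinib replicate 1 (0.112), ruxolitinib replicate 3 (0.0980), control replicate 1 (0.0886), control replicate 2 (0.0984) or either batch 1 (0.218) or batch 3 (0.0508). The A2M call was lost with batch 1 left out (0.0533), and that of ENSG00000272917 without ruxolitinib replicate 1 (0.0657), control replicate 3 (0.0610) or either batch 1 (0.151) or batch 3 (0.132). OLR1, outside the stretch of the members, starts 28.0 kb beyond the end of CLEC7A and was higher where CLEC7A was lower. CLEC1A (10069554 to 10111627), on the other side of CLEC7A, was too low to test. It had 1, 2 and 3 counts in the ruxolitinib libraries, against 8, 5 and 5 in the control libraries.

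**Figure D5:**
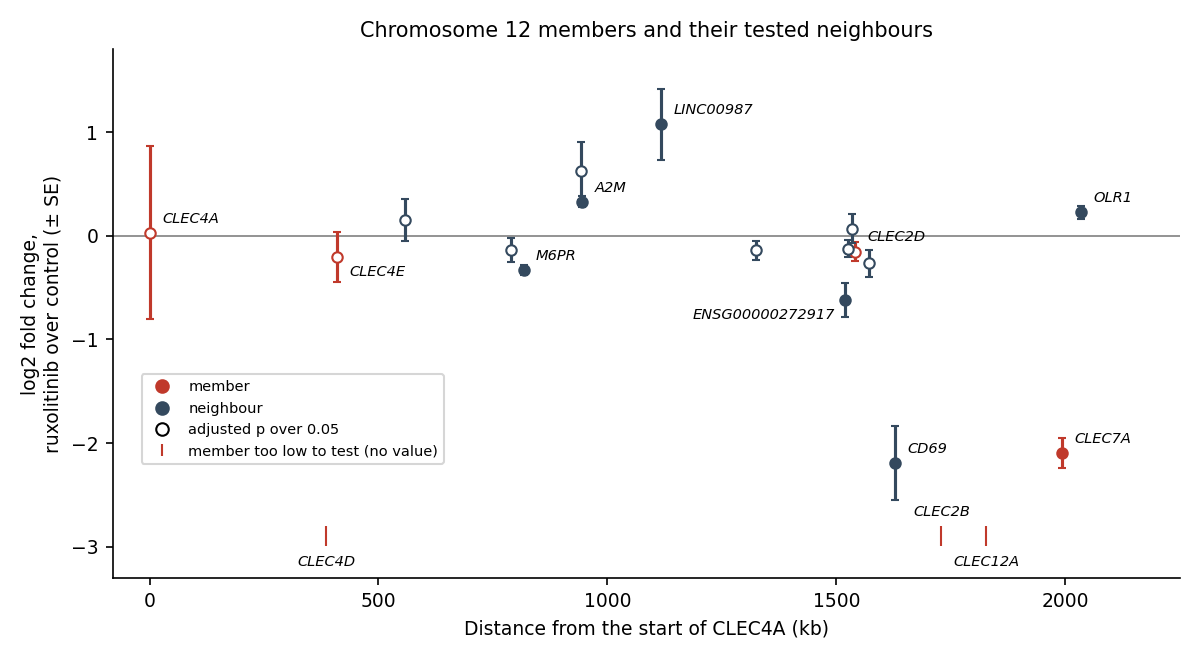
Log2 fold change of ruxolitinib over control with its SE for the tested members (red) and neighbours (dark) on chromosome 12, by distance in kilobases from the start of CLEC4A, with members too low to test drawn as ticks that carry no value. CLEC7A at -2.10 and CD69 at -2.20 lie far below the other genes drawn, among them OLR1 at 0.23 just beyond CLEC7A. CD69 passed the filter on low counts only through the control libraries, and LINC00987 only through the ruxolitinib libraries. Neighbours too low to test, such as CLEC1A before CLEC7A, are not drawn.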

How the data were processed

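Poly-A RNA of 6 THP-1 libraries, 3 with ruxolitinib and 3 control by the treatment field, was sequenced. The deposited values are the authors' raw counts, whole numbers for each gene. The build was hg38, per the submitters' processing notes, with aligner, counter, annotation and strand setting not given in the sources used here. The columns were matched to libraries through the sample titles. Positions and exon lengths came from GENCODE 29 (GRCh38), in which 58340 gene identifiers were found, and promoter sequences from RefSeq (GRCh38.p14), whose table held 5 of the 10 members.

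Counts were tested with edgeR 4.0.16 (glmQLFit and glmQLFTest, robust, TMM factors) in R 4.3.3. Genes were kept by filterByExpr (minimum count 10, minimum total 15). Standard errors came from the coefficient and its F statistic. Alternatives used limma 3.58.1 (voom), DESeq2 1.42.0, other scalings and filters, a batch block, and left-out libraries and batches. Batch numbers, a field of the labels separate from the titles, pair each ruxolitinib library with a control library, and the pairing rests on them. Over genes, the deviations of the paired libraries correlated at -0.03, -0.31 and -0.18 in batches 1, 2 and 3. The members and lists were chosen with earlier results of these data known. Named genes are the members, the 4 genes at most of smallest adjusted p in each list, and FCER1G, TYROBP, SYK and CARD9. RUBCN, PTPN6, PPP3CA, LYZ, OLR1, LY75, LINC00987 and the overlapping genes were added after their values were seen.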

Additional observations from a re-analysis of the deposited data

How the results depend on the processing

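The CLEC7A and CLEC5A calls held under all 17 alternatives (other scalings and filters, limma-voom, DESeq2, the batch block, and left-out libraries or batches), and CLEC4E passed under none. Of 626 values for named genes under alternatives, 546 kept direction and call, 57 lost the call, 8 gained one and 15 changed sign. Most named genes outside the members were picked for a small adjusted p or after their values were seen. The share that kept its call is therefore no measure of how well calls hold in general. CLEC4A, at 0.03 and not passing, was -0.0087 with library totals alone, -1.05 with limma-voom and -0.14 with the replicate block, and it had no value under a minimum of 1 CPM. With libraries or batches left out, CLEC4A ran from -1.01 to 1.01, CARD9 from -0.32 to 0.69 and CLEC11A from -0.0059 to 1.03, and the 5 ratios kept their sign in all 45 values.

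With libraries or batches left out, members lower numbered 2 to 3 and members higher 0 to 1. Over all genes, 840 to 2553 were higher and 1143 to 2481 lower, both lowest without batch 1, where 13.8% of genes passed. Counts ran from 1 to 4 for signalling genes higher, 5 to 8 for macrophage markers lower, 0 to 1 for macrophage markers higher, 3 to 6 for partners and ligands lower, 0 to 3 for other lectin-like genes higher and 0 to 3 for chromosome 12 neighbours higher. Signalling genes higher were 2 with upper-quartile factors. With library totals alone, without a filter, by DESeq2 and with the replicate block, macrophage markers higher were 0 and other lectin-like genes higher 1. Neighbours higher were 1 under a minimum of 1 CPM and by DESeq2. The balance of calls over all genes turned with the scaling: 2318 higher and 1957 lower with upper-quartile factors, 1995 and 2125 with median-ratio factors, and 1578 and 2621 with library totals alone. The cause of these shifts was not tested. The replicate block, pairing libraries by batch number, gave 1288 genes higher and 1627 lower, against 1908 and 2267 without it; among the named genes it ended the calls of TYROBP, LY75, LYZ and CD1C and changed no other named gene's call. With the block, 10 signalling genes were lower against 12, 4 partners and ligands against 6, and 7 macrophage markers against 8, so genes not named lost calls too. Members with at most 21 counts in any library, namely CLEC2B, CLEC4A, CLEC4D, CLEC10A and CLEC12A, could not show a moderate change. Their counts were low and those of CLEC4A also uneven between libraries.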
